A study of Drosophila melanogaster with 2 samples.

Results

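Nuclear tRNA genes were taken as the genes of the dm6 annotation on chromosome arms 2L, 2R, 3L, 3R, 4 and X whose symbol begins with tRNA:, which gave 295 of the 18164 annotated genes on those arms. Of these, 290 were annotated as tRNA genes and 5 as pseudogenes. There were 41 on 2L, 100 on 2R, 49 on 3L, 79 on 3R, 26 on X and 0 on chromosome 4. They were examined in lists of binding sites of a sisA-eGFP fusion protein, from ChIP-seq (sequencing of DNA that is immunoprecipitated with a protein, here through GFP).

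The chromatin came from whole Drosophila melanogaster embryos of the strain sisA-GFP aged 0 to 18 h, sonicated to 200 to 800 bp. SisA is a basic leucine zipper (bZIP) protein encoded on the X chromosome, and it takes part in counting X chromosomes when sex is determined. There were 2 biological replicates of 1 group, from the same strain, with embryo sex not collected. The labels do not say what drives the transgene or whether the replicates were separate collections, and the samples mix all embryonic tissues over the whole age range.

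Transfer RNA genes are short genes transcribed by RNA polymerase III. Their promoter lies inside the gene: the A box and the B box are bound by the factor TFIIIC, which recruits TFIIIB just upstream of the start. They occur in many near-identical copies, alone or in clusters, and each copy is named by its amino acid (the isotype) and anticodon.

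The data were peak lists on dm6. The position of a peak was taken as its summit, and its height as the signal value of the authors' peak caller, which describes and ranks peaks within a list. Read depth is unknown. The conservative list kept from both replicates held 5133 peaks on these arms, with a median signal of 128. A summit within 500 bp of a protein-coding transcription start site (TSS) is called a promoter summit here, and any other a non-promoter summit. With 1 group and no control library used here, no contrast between samples could be tested, so counts and medians are descriptions set beside those of all genes.

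The sequences that follow show the tRNA genes and summits on which the results turn, read from the RefSeq copy of dm6. The first run holds tRNA:Gln-TTG-2-1, the tRNA gene closest to a non-promoter summit, at chrX:3427452-3427737 on the minus strand. The gene's 72 bases are in capitals, the summit is base 21 of the run, and 193 bases lie between them.
tRNA:Gln-TTG-2-1: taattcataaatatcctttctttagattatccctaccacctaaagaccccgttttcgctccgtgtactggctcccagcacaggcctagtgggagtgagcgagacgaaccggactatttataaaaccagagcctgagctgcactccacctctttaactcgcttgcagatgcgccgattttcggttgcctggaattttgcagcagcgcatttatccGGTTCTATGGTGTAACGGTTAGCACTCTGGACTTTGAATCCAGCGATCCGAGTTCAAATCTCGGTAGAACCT

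The next run leads from the summit nearest to any tRNA gene to the last base before tRNA:Thr-AGT-1-4, at chr3R:16431818-16431939 on the plus strand. It holds 122 bases, of which base 21 is the summit.
upstream of tRNA:Thr-AGT-1-4: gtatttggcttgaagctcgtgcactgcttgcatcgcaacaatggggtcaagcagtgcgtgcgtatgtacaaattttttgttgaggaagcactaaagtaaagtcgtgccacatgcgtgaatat

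The following are whole genes with a summit within 1000 bp, each on its own strand, with matches to the A box letters TNGCNNAG and the B box letters GNTCNANNC in capitals. They lie at chr2L:8290727-8290799 on the plus strand for tRNA:Lys-TTT-1-1, chr3R:24112964-24113047 on the plus strand for tRNA:Leu-TAA-2-1, and chr3R:8668612-8668705 and chr3R:8669081-8669174 on the minus strand for tRNA:Tyr-GTA-1-7 and its neighbour tRNA:Tyr-GTA-1-8. The Tyr genes, both of 94 bases with 2 differences between them, carry the intron typical of this isotype and share the strongest peak near any tRNA gene.
tRNA:Lys-TTT-1-1: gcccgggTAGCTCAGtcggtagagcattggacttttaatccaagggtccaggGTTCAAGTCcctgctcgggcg
tRNA:Leu-TAA-2-1: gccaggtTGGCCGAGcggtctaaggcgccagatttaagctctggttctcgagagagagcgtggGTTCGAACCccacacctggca
tRNA:Tyr-GTA-1-7: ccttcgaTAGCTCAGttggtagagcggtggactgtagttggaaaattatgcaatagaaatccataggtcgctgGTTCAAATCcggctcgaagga
tRNA:Tyr-GTA-1-8: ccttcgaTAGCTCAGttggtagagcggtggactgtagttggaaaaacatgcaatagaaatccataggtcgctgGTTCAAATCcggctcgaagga

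The B box letters GNTCNANNC were found in 292 of the 295 tRNA genes (99.0%), against 26 windows of the same length (8.81%) placed 500 bp upstream of each start. The stricter B box GGTTCGA was found in 146 genes (49.5%), against 7 of the upstream windows (2.37%). The A box letters TNGCNNAG were found in 147 genes (49.8%), against 29 upstream windows (9.83%), and the stricter TGGCNNAG in 69 genes (23.4%), against 9 windows (3.05%). These were searched on the gene strand. All 26 genes with a summit within 1000 bp held the open B box letters, and 11 of the 26 held GGTTCGA.

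No conservative summit lay inside a tRNA gene or within 100 bp of a tRNA start, against 4.50% of all annotated genes with a summit within 100 bp and 0 of the 269 snoRNA genes, which are also short but mostly lie in introns of protein-coding genes. Of the 295 genes, 26 (8.81%) had a summit within 1000 bp of the start, against 18.6% of all annotated genes. With a single start for each gene rather than all of its TSSs, the share of all genes was 17.1%. Within 500 bp there were 10 tRNA genes (3.39%), against 14.9% of all genes. Within 250 bp there were 6 (2.03%), against 11.2% of all genes, and within 2000 bp there were 54 (18.3%), against 24.9%. The snoRNA genes stood at 1.12% within 250 bp, 2.97% within 500 bp, 12.6% within 1000 bp and 29.7% within 2000 bp. The 3924 genes that are neither tRNA nor protein-coding stood at 2.73%, 5.61%, 10.7% and 18.0% in the same order. The tRNA genes thus stood below all genes at each of these distances, and the low shares close to the start were also seen at snoRNA genes and, in part, at the other genes that code for no protein.

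The median distance from a tRNA start to the nearest summit was 8791 bp (quartiles 2846 and 16210 bp), against 7621 bp for all genes and 4544 bp for the snoRNA genes. The 3 tRNA genes farthest from any summit all lay on X: tRNA:Pro-CGG-1-1 at 135499 bp, tRNA:Ser-AGA-3-2 at 108501 bp and tRNA:Arg-TCG-1-1 at 107643 bp. The closest was tRNA:Thr-AGT-1-4 at 102 bp.

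**Figure D1:**
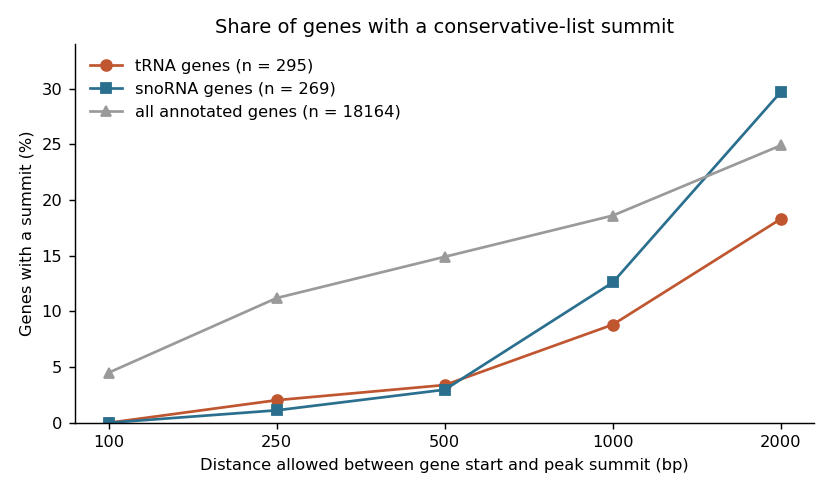
Share of genes, in percent, with a conservative-list summit within 100, 250, 500, 1000 or 2000 bp of a start, for tRNA genes, snoRNA genes and all annotated genes. tRNA genes stand at 0%, 2.03%, 3.39%, 8.81% and 18.3%, below all annotated genes at each distance, and snoRNA genes at 0%, 1.12%, 2.97%, 12.6% and 29.7%.

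Promoter and non-promoter summits were also counted apart. A promoter summit within 1000 bp was found for 14 tRNA genes (4.75%), against 15.6% of all genes. A non-promoter summit was found for 12 tRNA genes (4.07%), against 4.12% of all genes. The share of all genes is no even measure of the non-promoter kind, since 13945 of the 18164 genes are protein-coding and by definition have no such summit within 500 bp. Among the 3924 genes neither tRNA nor protein-coding, 4.54% had a promoter summit and 6.57% a non-promoter summit within 1000 bp, and among snoRNA genes 8.92% and 3.72%. No tRNA gene had both kinds within 1000 bp. Summits near tRNA genes lay upstream of the start in 16 cases and downstream in 10.

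Around tRNA starts each bin of 250 bp held few summits, and the highest bin was not at the start itself. The 250 bp just upstream held 5 summits (0.0678 per gene per kb), where the mean of the arms was 0.0383 per kb. The bins to each side of it, 250 to 500 bp upstream and the 250 bp just downstream, held 1 each (0.0136). The highest bin was 1000 to 1250 bp upstream, with 9 summits (0.122 per gene per kb). At protein-coding genes the 250 bp just upstream held 0.423 summits per gene per kb. Neighbouring tRNA genes count the same summit more than once in these profiles.

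**Figure D2:**
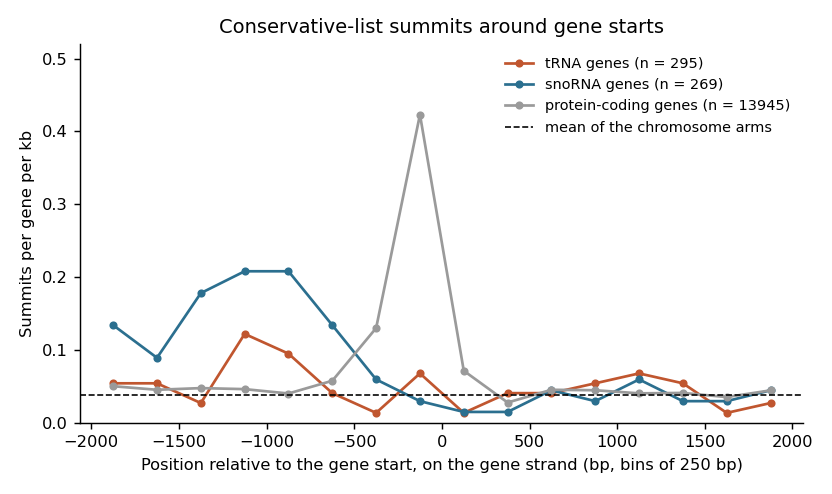
Conservative-list summits per gene per kb in bins of 250 bp around the annotated start, on the gene strand, for tRNA, snoRNA and protein-coding genes, with the mean of the chromosome arms as a dashed line. Protein-coding genes reach 0.423 just upstream of the start, where tRNA genes stand at 0.0678.

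Counted as sequence rather than genes, the tRNA gene bodies covered 22.4 kb and held 0 conservative summits, where the arms averaged 38.3 summits per Mb. At that rate sequence of this length would hold 0.858 summits, so the count of 0 was within 1 summit of the mean rate. The windows of 1000 bp to each side of tRNA starts, merged where they overlap, covered 391 kb and held 22 summits, or 56.3 per Mb. The neighbourhood of tRNA genes was therefore not poorer in summits than the arms as a whole.

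The share of tRNA genes with a summit was highest beside protein-coding starts, lower out to 5000 bp and higher again beyond. Of the 33 tRNA genes within 500 bp of a protein-coding TSS, 8 (24.2%) had a summit within 1000 bp, where 17.7% of all sequence that close to a TSS lay within 1000 bp of a summit. Of the 47 genes farther than that and up to 1000 bp from a TSS, 5 (10.6%) had one, against 12.9% of the sequence there. The share was 3 of 45 (6.67%) beyond 1000 and up to 2000 bp, against 6.63% of the sequence, and 1 of 57 (1.75%) from there to 5000 bp, against 5.47%. Among the 113 genes more than 5000 bp from any protein-coding TSS, 9 (7.96%) had a summit, against 3.95% of such sequence. The snoRNA genes stood at 10 of 29 (34.5%), 11 of 56 (19.6%), 8 of 93 (8.60%), 5 of 67 (7.46%) and 0 of 24 in the same order of distance. Each of these shares rests on 11 genes or fewer.

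The protein-coding promoters beside tRNA genes were not short of summits. Of 69 protein-coding TSSs within 1000 bp of a tRNA start, 13 (18.8%) had a summit within 500 bp, against 15.9% of all protein-coding TSSs. Some of these pairs lie farther apart than the longest fragments, of 800 bp. For closer pairs, a fragment can span both, and the peak lists alone do not settle whether binding was at the promoter or the tRNA gene.

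The sequence of tRNA gene bodies was in large part repeated in the assembly. The reads themselves were not examined. The 295 genes had 100 distinct sequences, 238 genes had at least 1 identical copy, and the largest set of identical genes held 13, all of isotype Gly. Of the words of 31 bases within a gene, the median gene had 0% that occur once in the assembly, whereas the median was 100% for the 500 bp upstream and for the 500 bp downstream. The sources used here do not say how reads that match several places were handled, and the part of this in the counts at the genes themselves was not tested. A summit within 1000 bp was found for 20 genes with an identical copy (8.40%) and for 6 of the 57 with a sequence of their own (10.5%).

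The 26 tRNA genes lay near 22 distinct summits, 11 in promoters and 11 outside them, of which 5 were shared by several tRNA genes. Their median signal was 131 (range 74.4 to 541), against 128 for the whole list, and 11 of the 22 were above the list's median. The median was 164 at the promoter summits, against 157 for all promoter summits of the list, and 115 at the non-promoter ones, which equals the 115 of the whole list. All 22 had a counterpart within 100 bp in the ranked, unthresholded list of each replicate. The peak was in the thresholded list of replicate 1 at 18 of them and in that of replicate 2 at 15, with 13 in both. Those lists hold 4720 and 3408 peaks on the arms, fewer than the 5133 of the conservative list. These counts and that of the counterparts were not made over the whole conservative list. They therefore do not set these 22 summits apart from others.

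**Figure D3:**
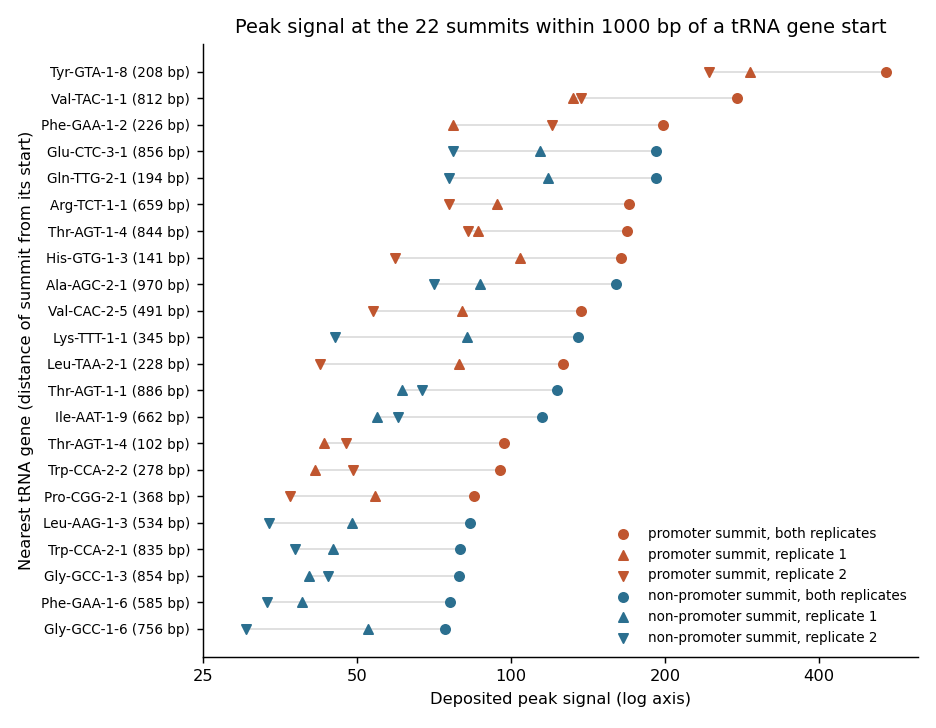
Deposited peak signal on a log axis at the 22 summits within 1000 bp of a tRNA start, in the conservative list (circles) and in the ranked lists of replicate 1 (upward triangles) and replicate 2 (downward triangles), each named by its nearest tRNA gene. Signals run from 74.4 to 541, and replicate 1 is the higher at 15 of the 22.

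The strongest non-promoter summits belonged to tRNA:Gln-TTG-2-1 and tRNA:Glu-CTC-3-1. tRNA:Gln-TTG-2-1 lies in an intron of CG12535 on the same strand, 8284 bp from the nearest protein-coding TSS, with the summit 194 bp upstream of its start. The peak there reached 118 in replicate 1, 75.6 in replicate 2 and 192 in the conservative list. tRNA:Glu-CTC-3-1 lies within Ptp61F, which encodes a tyrosine phosphatase, and ru, which encodes a rhomboid protease, 856 bp from a summit of signal 114 in replicate 1, 77.0 in replicate 2 and 192 in the conservative list. Both peaks passed the threshold in each replicate.

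A further pair of non-promoter summits had a signal above the list's median of 128. tRNA:Ala-AGC-2-1, in an intron of nmo, a protein kinase gene, lay 970 bp from a summit of signal 87.1 in replicate 1 and 70.6 in replicate 2, and 160 in the conservative list. tRNA:Lys-TTT-1-1, in an intron of the tyrosine kinase gene Btk on the opposite strand, had a summit 345 bp downstream of its start. That peak reached 82.0 in replicate 1, 45.4 in replicate 2 and 135 in the conservative list, and it passed the threshold in replicate 1 only.

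The remaining non-promoter summits were weaker. tRNA:Thr-AGT-1-1, in an intron of tai, a steroid receptor coactivator gene, lay 886 bp from a summit of signal 61.3 in replicate 1, 67.0 in replicate 2 and 123 in the conservative list. tRNA:Ile-AAT-1-9, between genes, lay 662 bp from one of 54.7, 60.2 and 115 in the same order. tRNA:Leu-AAG-1-3 lay 534 bp from one of 49.0, 33.7 and 83.1. These 3 were below the list's median, and the first pair passed in both replicates while the peak at tRNA:Leu-AAG-1-3 passed in replicate 1 only.

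The 4 lowest non-promoter summits had conservative-list signals from 74.4 to 79.7. tRNA:Trp-CCA-2-1 lay 835 bp from a summit of 44.9 in replicate 1, 37.9 in replicate 2 and 79.7 in the conservative list. tRNA:Gly-GCC-1-3 lay 854 bp from one of 40.3, 44.0 and 79.1, which is also 563 bp from the start of Proc, the gene of the neuropeptide proctolin, and so just outside the promoter class. tRNA:Gly-GCC-1-6 lay 756 bp from one of 52.7, 30.3 and 74.4. The neighbours tRNA:Phe-GAA-1-6 and tRNA:Phe-GAA-1-7, at 585 and 902 bp, shared one of 39.1, 33.3 and 76.0. The peaks at tRNA:Trp-CCA-2-1 and at this Phe pair passed the threshold in neither replicate's own list, that at tRNA:Gly-GCC-1-3 passed in replicate 2 only and that at tRNA:Gly-GCC-1-6 in replicate 1 only.

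The strongest promoter summit, shared by tRNA:Tyr-GTA-1-8 at 208 bp and tRNA:Tyr-GTA-1-7 at 677 bp, lay 236 bp from a TSS of CG8036. Its signal was 293 in replicate 1 and 244 in replicate 2, and 541 in the conservative list. The next lay 812 bp upstream of tRNA:Val-TAC-1-1 and 185 bp from a TSS each of CG46456 and lama. Its signal was 132 in replicate 1, 137 in replicate 2 and 277 in the conservative list. tRNA:Phe-GAA-1-2 lay 226 bp from a summit in the promoter of RpL17, a gene of the large ribosomal subunit, with 77.0, 120 and 198 in the same order. All of these passed in both replicates.

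The neighbours tRNA:Arg-TCT-1-1 and tRNA:Met-CAT-1-1 shared a summit at 659 and 869 bp, in the promoter of CG34228, whose peak reached 94.0 in replicate 1, 75.6 in replicate 2 and 170 in the conservative list. tRNA:His-GTG-1-3 and tRNA:His-GTG-1-2 shared a summit at 141 and 902 bp in the promoter of CG8490, with 104, 59.3 and 164 in the same order. The stronger of the summits at tRNA:Thr-AGT-1-4 lay 844 bp from its start, in the promoter of Fntb, which encodes a farnesyltransferase subunit, with 86.4 in replicate 1, 82.3 in replicate 2 and 168 in the conservative list. Its closer one, 102 bp upstream, was in the promoter of CG31279, had 43.2 in replicate 1, 47.6 in replicate 2 and 96.9 in the conservative list, and passed in replicate 2 only.

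tRNA:Val-CAC-2-5 lay 491 bp from a summit in the promoter of Naam, a nicotinamide amidase gene, with 80.1 in replicate 1, 53.8 in replicate 2 and 137 in the conservative list. tRNA:Leu-TAA-2-1 lay 228 bp from one in the promoter of CG13605, with 79.0, 42.3 and 127 in the same order, and this one passed in replicate 1 only. The remaining tRNA genes with a promoter summit were tRNA:Trp-CCA-2-2 and tRNA:Gly-GCC-1-9, which share one of conservative-list signal 95.1, and tRNA:Pro-CGG-2-1, with one of 84.8 in the promoter of Bx. Conservative peaks overlapped the tRNA gene itself at tRNA:Thr-AGT-1-4, tRNA:His-GTG-1-3 and tRNA:Phe-GAA-1-2, and at no other tRNA gene. Each of these 3 peaks had its summit in a protein-coding promoter.

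The 61 bases around 4 of these summits, each on the plus strand with the summit at its centre, are shown next for comparison. The first pair are the strongest non-promoter summits near tRNA genes on 3L and 2L, and the second pair are promoter summits. Capitals mark any match to the words searched, of which only TTACGT falls in these windows.
summit near tRNA:Glu-CTC-3-1, chr3L:1379048-1379108: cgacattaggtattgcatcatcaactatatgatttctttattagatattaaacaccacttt
summit near tRNA:Lys-TTT-1-1, chr2L:8291042-8291102: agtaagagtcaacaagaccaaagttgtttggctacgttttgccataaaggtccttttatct
summit near tRNA:Tyr-GTA-1-8, chr3R:8669352-8669412: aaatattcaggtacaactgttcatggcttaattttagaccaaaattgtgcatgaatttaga
summit near tRNA:Thr-AGT-1-4, chr3R:16431808-16431868: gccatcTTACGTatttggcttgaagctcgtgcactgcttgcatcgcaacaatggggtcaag

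Words were counted on both strands within 100 bp of each summit. The bZIP words TGACGT and TGACTCA were in 0 of the 22 windows near tRNA genes, against 3.21% and 1.64% of the 5133 windows of the whole list, and TTACGT was in 1 (4.55%), against 5.18%. The word CGATA, part of the site of the insulator protein BEAF-32, was in 6 (27.3%), against 24.7%. TATCGATA, the site of the promoter factor DREF, which contains CGATA, was in 1 (4.55%), against 2.36%, and GGTCACAC, the site of the promoter factor M1BP, in 0, against 1.56%. The B box GGTTCGA was in 1 window (4.55%), against 1.05%. With 22 windows, 1 window is 4.55%, so none of these shares stood apart from the list by more than a few windows.

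No isotype had more than 3 genes near a summit. Of 22 isotypes, counting initiator methionine (iMet) and selenocysteine (SeC) separately, 16 had a gene with a summit within 1000 bp, and 10 had one with a non-promoter summit. Phe had 3 of 8 genes, of which 2 share 1 summit, Gly 3 of 20, His 2 of 6, Trp 2 of 8, Tyr 2 of 10, Val 2 of 15, Thr 2 of 18 and Leu 2 of 22. Met, Ile, Lys, Glu, Arg, Pro, Gln and Ala had 1 gene each. There was none for Ser (20 genes), Asp (14), Asn (10), Cys (7), iMet (6) and SeC (1).

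Median distances ran from 1114 bp for His to 39760 bp for the single SeC gene. The His median rests on a cluster of 5 genes, of which 1 is annotated as a pseudogene. Each lay within 1211 bp of a summit, and the 4 that are not pseudogenes were nearest to the same one. The remaining His gene lay 9518 bp from any. Met (1600 bp) and Phe (1718 bp) followed, and the farthest isotypes with several genes were Ala (26692 bp), Gln (17548 bp) and Ser (14712 bp). Gln shows the spread within an isotype: its 12 genes ran from 194 to 26427 bp. By anticodon, Gly-GCC had 3 of 14 genes and Thr-AGT 2 of 9, all with their summits in different clusters.

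**Figure D4:**
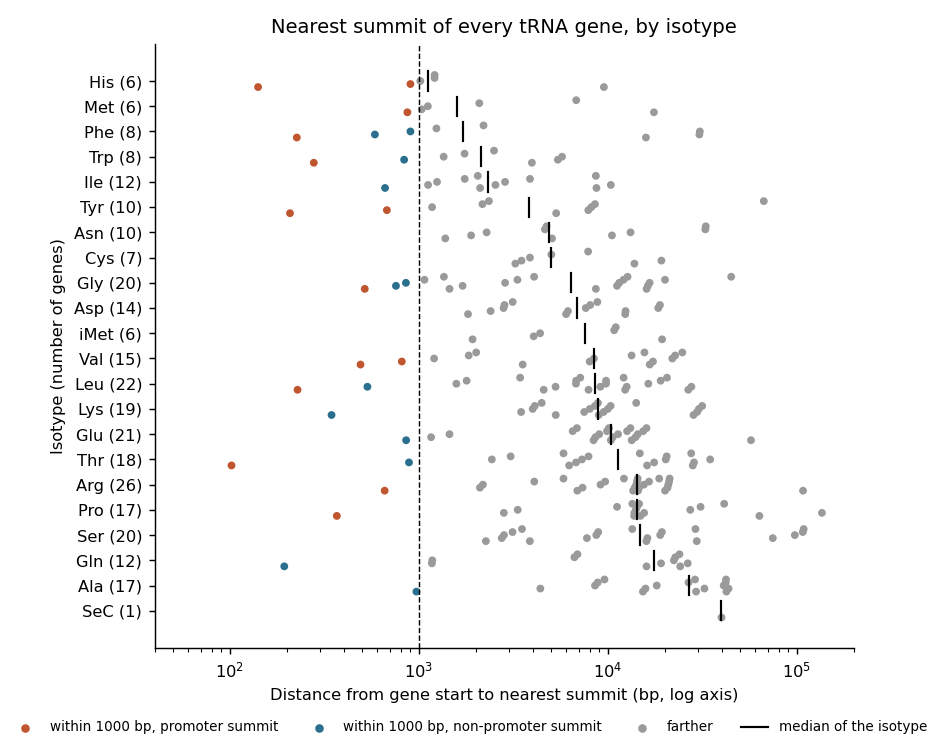
Distance on a log axis from each of the 295 tRNA starts to the nearest conservative-list summit, by isotype, with the isotype's median as a black bar and 1000 bp as a dashed line. Medians run from 1114 bp for His to 39760 bp for SeC, and most isotypes spread over the range from below 2000 to above 10000 bp.

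Joining tRNA genes whose starts lay within 10000 bp of the next gave 136 clusters, and 21 of them (15.4%) had a summit within 1000 bp of a member. Genes standing alone had one in 11 of 66 cases (16.7%), clusters of 2 to 4 genes in 9 of 59 (15.3%) and clusters of 5 or more in 1 of 11 (9.09%). Counted by gene, the share was 16.7% for lone genes, 9.03% for genes in clusters of 2 to 4, and 2 of 85 (2.35%) for genes in clusters of 5 or more. The only large cluster with a summit was the His cluster on 2R, of 5 genes over 2.88 kb. As 1 of the 5 is annotated as a pseudogene, the cluster would fall out of this class without it. The clusters are few, and the genes within one often share a summit.

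The 5 largest clusters had no summit within 1000 bp of a member. The largest, of 15 Arg, Asn, Ile and Lys genes over 26.1 kb of 2R, held 1 summit within its span, and its closest member lay 1379 bp from a summit. A cluster of 8 Ile and Leu genes on 2R came to within 1118 bp of one. The cluster of 11 Ala, Pro, Thr and Val genes on 3R lay at least 13339 bp away, that of 9 Arg and Ser genes on X at least 18666 bp, and that of 8 Glu and iMet genes on 2R at least 10788 bp.

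**Figure D5:**
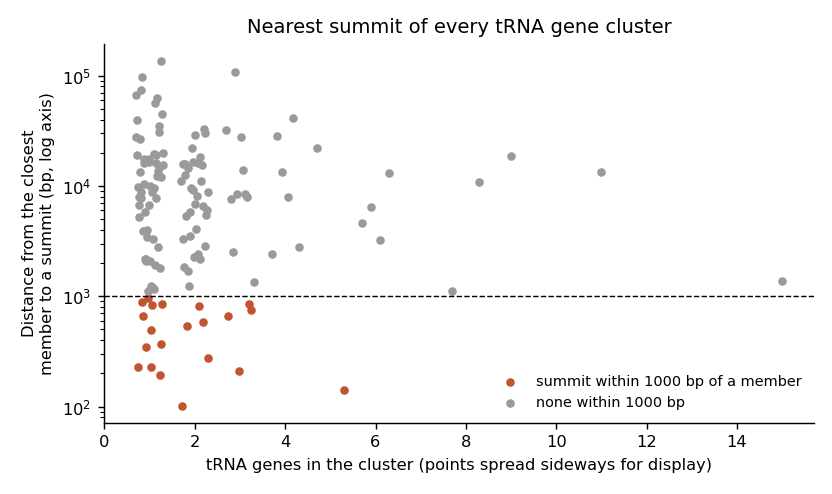
Distance on a log axis from the closest member of each of the 136 tRNA gene clusters to a conservative-list summit, by the number of genes in the cluster, with 1000 bp as a dashed line. Of the 11 clusters of 5 or more genes, only the His cluster, at 141 bp, falls under the line.

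Between chromosome arms, the share of tRNA genes with a summit within 1000 bp was 12.2% on 2L (5 of 41), 8.0% on 2R (8 of 100), 6.12% on 3L (3 of 49), 8.86% on 3R (7 of 79) and 11.5% on X (3 of 26). All genes ran from 17.3% on 2L to 19.8% on X, so tRNA genes stood lower on each arm that carries them. The genes neither tRNA nor protein-coding were not counted by arm. All 5 on 2L were non-promoter summits. By position, 15 of 158 tRNA genes between protein-coding genes (9.49%), 11 of 130 in introns (8.46%) and 0 of 7 that overlap an exon had a summit within 1000 bp.

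The tRNA genes also stood below all genes in each replicate's own thresholded list. In replicate 1, 25 tRNA genes (8.47%) had a summit within 1000 bp, against 18.1% of all genes, and in replicate 2 there were 19 (6.44%), against 14.1%. Most of all genes are protein-coding, and the genes neither tRNA nor protein-coding were not counted in these lists. In the conservative list those genes stood at 10.7%, against 8.81% of the tRNA genes. Of these, 22 and 18 were among the 26 of the conservative list, and 17 genes were found in both replicates' own lists. The share of all genes found in both was not counted. The genes tRNA:Phe-GAA-1-4, tRNA:Phe-GAA-1-5 and tRNA:Ala-AGC-2-8 came from replicate 1 alone and tRNA:Ser-GCT-2-2 from replicate 2 alone.

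A summit within 100 bp of a tRNA start occurred once in each replicate's list. In replicate 1 it lay 51 bp from tRNA:Phe-GAA-1-4, with a signal of 32.8 where the list's median was 79.3. In replicate 2 it lay 75 bp from tRNA:Thr-AGT-1-4, with 47.6 where the median was 80.8. The latter is the peak in the promoter of CG31279, whose summit in the conservative list lay 102 bp away. The share of all genes with a summit this close was not counted in these lists. Replicate 2 had no ranked summit within 100 bp of the middle of tRNA:Phe-GAA-1-4, and the peak at this gene was not in the conservative list.

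The ranked lists, which hold many weak peaks below the threshold, were read at the genes themselves. A ranked summit of the list from both replicates lay within 100 bp of the middle of 60 tRNA genes (20.3%), against 17.4% of points placed every 1000 bp along the arms. In replicate 1 there were 68 (23.1%), against 14.9% of the points, and in replicate 2 there were 44 (14.9%), against 15.5%. It was found in both replicates at 22 genes, in replicate 1 alone at 46 and in replicate 2 alone at 22. The share of the points with one in both replicates was not counted. This overlap therefore does not set the tRNA genes apart. By the share of genes in each list, replicate 1 stood above the points and replicate 2 did not. Counted as summits within the gene bodies, both replicates stood above the arms. The list from both held 26 ranked summits there (1161 per Mb, against 866 for the arms). Replicate 1 held 38 (1697, against 744) and replicate 2 held 25 (1117, against 780). Within 250 bp to each side of the starts, the densities were 818, 826 and 648 per Mb in the same order. Within 1000 bp they were 951, 828 and 777. Replicate 1 stood above the arms in all of these windows, and replicate 2 in the gene bodies only.

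The ranked peaks within 100 bp of the middle of a tRNA gene were low. Their median signal was 24.5, against 22.4 for the whole ranked list, and the highest, 58.7 at tRNA:Phe-GAA-1-4, was exceeded by 96.2% of the conservative peaks. Next stood tRNA:Asp-GTC-2-1, with 34.2 in replicate 1, 23.0 in replicate 2 and 57.8 in the list from both. At the snoRNA genes, 10.4% had a ranked summit within 100 bp of the middle.

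The protein-coding genes that make and use tRNAs were counted for comparison, with a summit within 1000 bp of any TSS, a share that was 21.1% over all protein-coding genes. Of 16 genes for RNA polymerase III and its factors, 4 (25%) had one. They included Bdp1 and Brf, subunits of TFIIIB, with conservative-list signals of 738 and 649, and Polr3E, a subunit of the polymerase, with 230. Bdp1 had 409 in replicate 1 and 329 in replicate 2, and Brf had 341 and 277. The peaks at both TFIIIB genes were stronger than any within 1000 bp of a tRNA gene.

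Of the 20 cytosolic aminoacyl-tRNA synthetase genes, which encode the enzymes that charge tRNAs, 7 (35.0%) had a summit, led by GluProRS (723), SerRS (516), IleRS (339) and ThrRS (305). Of 15 mitochondrial ones, 5 (33.3%) had one, led by LeuRS-m (741), ProRS-m (197), AspRS-m (88.8) and ArgRS-m (88.5). Of 29 genes for tRNA processing and modification, 8 (27.6%) had one, led by Tcs5 (2528), a kinase of the complex that makes the t6A modification, Elp5 (1162) and Elp6 (420), subunits of Elongator, and Rpp20 (151), a subunit of RNase P. All these values are conservative-list signals. The shares of these short lists rest on 4 to 8 genes each.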

How the data were processed

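The authors deposited narrowPeak lists on dm6, per the file listings: a conservative and a longer thresholded list from both replicates, a thresholded list for each replicate, and ranked lists before thresholding. Peak signal is a value of the authors' own peak caller, deposited with no normalization stated. The deposited score follows the irreproducible discovery rate, with high scores for reproducible peaks, and was at least 830 in every thresholded peak. The sources used here do not give the peak caller, the aligner or their versions. The 2 samples were biological replicates 1 and 2 of 1 group, per the labels; their spread may be technical.

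Genes came from Ensembl release 115 (BDGP 6.54) without transposable elements, and sequence from RefSeq's dm6, whose arm lengths hold every peak and gene. Coordinates are 1-based. A tRNA start is the annotated 5' end, and other genes counted any TSS. A replicate's value is the signal of the summit in its ranked list within 100 bp of the conservative summit. The scripts used numpy 2.4.6 and pandas 2.3.3 under Python 3.11.15, with matplotlib 3.10.9 for figures. The search for the nearest summit was tested on simulated positions, and the other steps were not.

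The members, lists and motifs were chosen with earlier results of these data known. The text names every tRNA gene with a non-promoter summit within 1000 bp, the 10 with the strongest promoter summit, the 3 farthest, the 5 largest clusters and the 4 strongest members of each pathway list, of which 1 is not reported here. Further tRNA genes are named after their values were seen: those of the replicates' own lists and of the ranked lists, and genes printed as sequence. The more open box letters, the single start per gene, the sequence shares near TSSs, the summits at the arms' rate and the set of genes neither tRNA nor protein-coding were added after values were seen. Of the symbols listed for the pathway, 6 were not matched (TfIIIA, Rpp14, Adat2, Adat3, Exp-T and Xpot) and are not counted. Alternatives were the longer list, the peaks above the list's median signal, each replicate's own list, distances of 250 and 2000 bp, distance from the nearest base of the gene, promoters of 250 and 1000 bp, and clusters joined within 5000 or 20000 bp.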

Additional observations from a re-analysis of the deposited data

How the results depend on the processing

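Of 32 values recomputed under an alternative, 22 stayed close to the reported one and 10 moved. Among the peaks above the list's median signal, 14 tRNA genes had a summit within 1000 bp, 6 within 500 bp and 4 a non-promoter one, 11 clusters had one, and the median distance was 15794 bp; this set holds fewer peaks. Within 2000 bp there were 54 tRNA genes with a summit and 28 with a non-promoter one, and within 250 bp there were 6 with a summit. Leaving out a replicate gave 19 to 25 genes within 1000 bp, 8 to 12 within 500 bp, 7 to 10 with a non-promoter summit, 15 to 20 clusters and a median distance of 8707 to 14104 bp. Without replicate 1 the non-promoter count was 7 and the median 14104 bp; the cause was not tested. The longer list, the nearest base of the gene, promoters of 250 or 1000 bp and clusters joined within 5000 or 20000 bp kept each count they bear on within 1.5 times.

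Depth is unknown, and intervals that would need read counts are left out. Summits are placed within fragments of 200 to 800 bp, longer than the tRNA genes (71 to 186 bp), and the handling of reads from repeated genes is not known. No paired analysis was possible because the samples form 1 group and no test compares groups.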

Other observations

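A set of other noncoding RNA genes, named below, was read in the same way. Which polymerase transcribes each of them was not examined. The 100 5S rRNA genes and pseudogenes had 0 summits within 1000 bp, against 18.6% of all genes, and stood 14793 to 39649 bp from the nearest. They lie in 1 tandem array on 2R, so they are not independent counts. How reads from these repeated copies were handled is not known either, and its part in the count was not tested. The U6 snRNA genes have promoters that lie upstream rather than inside the gene, and the 3 read here (snRNA:U6:96Aa, snRNA:U6:96Ab and snRNA:U6:96Ac) share 1 nearest summit. This non-promoter summit, 8104 bp from the nearest protein-coding TSS, lay 94 bp from the start of snRNA:U6:96Ac, 429 bp from snRNA:U6:96Ab and 1033 bp from snRNA:U6:96Aa. Its signal was 85.4 in replicate 1, 83.1 in replicate 2 and 176 in the conservative list. The tRNA gene nearest to it, tRNA:Asp-GTC-1-11, lay 1819 bp away. The gene snRNA:7SKa lay 1030 bp from a summit of signal 472 in the promoter of CG1142. The others lay farther away: RNaseMRP:RNA at 3474 bp, snRNA:U6atac at 5441 bp, the 7SL RNA genes at 28906 and 30977 bp, RNaseP:RNA at 30142 bp and snRNA:7SKb at 36206 bp. Of 10 such genes other than 5S, 2 had a summit within 1000 bp, both the same one, against 18.6% of all genes.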
